A study of Mus musculus with 6 samples.

Results

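The genes described here encode the class I histone deacetylases (Hdac1, Hdac2, Hdac3 and Hdac8) and the class IIa histone deacetylases (Hdac4, Hdac5, Hdac7 and Hdac9). They were chosen by name. Of 19938 genes measured by probe sets with exactly 1 gene symbol, these are 8, and 10 probe sets carry their symbols, 2 each for Hdac1 and Hdac4 and 1 for each of the others. RNA came from W4 cells, a mouse embryonic stem cell line, after 16 days of neural differentiation in medium with B27, N2, bFGF and insulin. Sodium valproate (VPA), at 300 uM throughout, was present in 3 cultures, and PBS, its solvent, in 3 control cultures. All cultures came from 1 cell line with no genetic change named in the labels, and each culture can hold several cell types. Values are the authors' normalized log2 signals from an Affymetrix whole transcript array, 1 array per culture. RNA, not protein or enzyme activity, was measured.

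Histone deacetylases remove acetyl groups from lysines of histones and other proteins, and most act inside repressor complexes. The class I enzymes HDAC1 and HDAC2 form the catalytic core of the Sin3, NuRD and CoREST complexes, HDAC3 works in the NCoR corepressor complex, and HDAC8 acts outside these complexes, on the cohesin subunit SMC3 among others. The class IIa enzymes have little catalytic activity of their own, bind MEF2 transcription factors, and move between nucleus and cytoplasm when kinases phosphorylate them. VPA inhibits class I enzymes and, more weakly, class IIa enzymes, so the comparison asked whether long exposure to the inhibitor went with a different RNA level of its targets.

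With VPA, Hdac1 rose to 9.94 ± 0.07, against 9.58 ± 0.05 with PBS (log2, SD, n = 3 each), a change of 0.36 or 1.28-fold. It was the only member called, at a Benjamini-Hochberg adjusted p under 0.05 over all 19938 genes in limma. Of the 8 members, 1 was called higher and 0 lower, whereas over all genes tested 13.6% were called higher and 15.7% lower, 29.2% in all. At an unadjusted p under 0.05, 1 member was higher and 2, Hdac2 and Hdac5, were lower, beside 18.8% and 20.9% of all genes. For the 7 members not called, the 95% intervals of the change lay between 0.72-fold and 1.16-fold. The median change was 0.0008 over the class I members and -0.05 over the class IIa members, against 0.0013 over all genes. For 4 of the 8 members the VPA arrays all lay on one side of the PBS arrays, 2 of them higher with VPA (Hdac1 and Hdac8) and 2 lower (Hdac2 and Hdac3). This held for 44.0% of all genes, 20.2% with VPA higher and 23.8% with VPA lower.

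**Figure D1:**
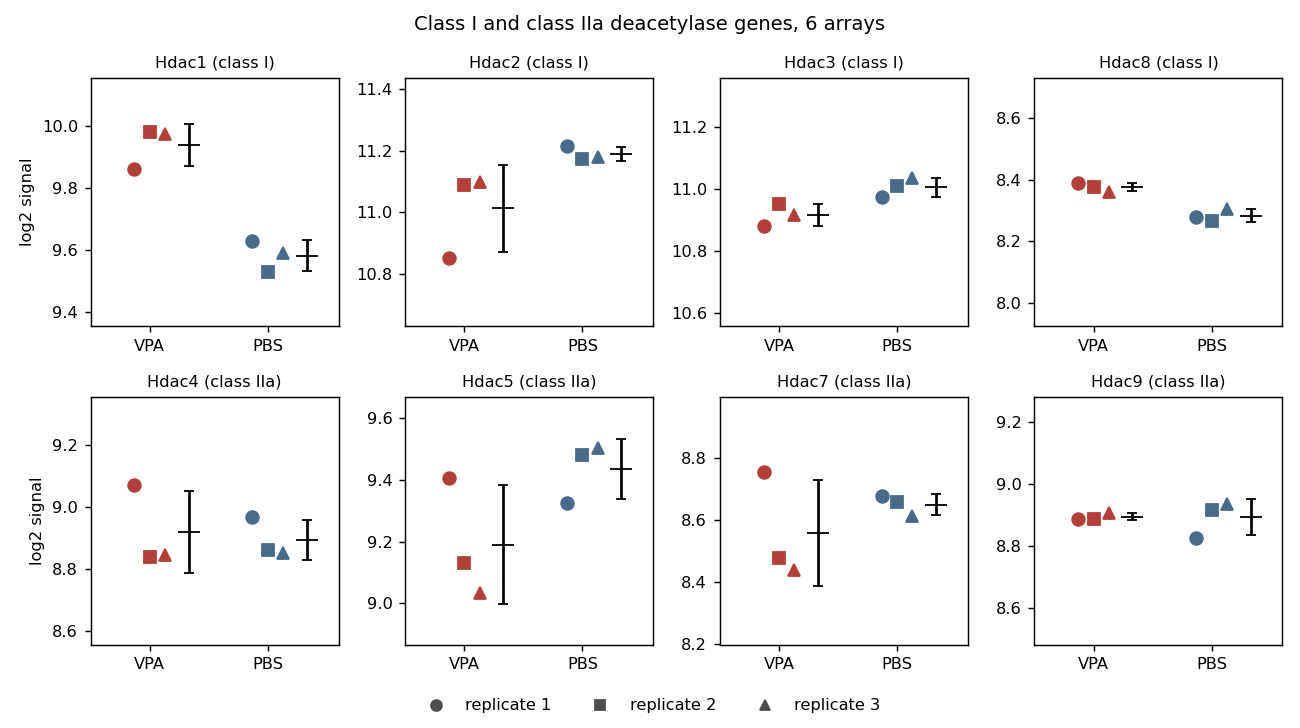
Normalized log2 signal of the 8 deacetylase genes on each of the 6 arrays (points, shaped by replicate number), with the mean and SD of each group (black); every panel spans the same 0.8 log2 units. Hdac1 is the gene whose VPA arrays, 9.86 to 9.98, stand furthest above its PBS arrays, 9.53 to 9.63, and VPA replicate 1 stands apart from the other VPA arrays in Hdac2, Hdac4, Hdac5 and Hdac7.

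The culture was checked against marker genes. A probe set was taken as not told apart from background where its mean lay below 6.155, the 95th percentile of 1027 olfactory receptor genes. By this gauge 0 of 20 neuronal markers, but 7 of 8 pluripotency markers, lay below background in both groups, and among astrocyte markers 3 of 7 did. The 20 neuronal markers averaged 10.42 to 10.52 on the VPA arrays and 10.55 to 10.62 on the PBS arrays, with 2 called higher and 11 lower. The 19 cell cycle markers averaged 9.23 to 9.31 with VPA and 8.76 to 8.92 with PBS (17 called higher, 0 lower). Fibroblast and matrix markers rose in 13 of 15 cases, muscle markers in 11 of 16 and endothelial markers in 10 of 13, while 3 of 7 astrocyte markers were called lower. The shares over all genes were 13.6% called higher and 15.7% lower. Below background in both groups lay 1 of the 15 fibroblast and matrix markers, 2 of the 16 muscle markers and 3 of the 13 endothelial markers, the last including Erg, which is among the 10 called higher. In such bulk RNA, fewer cells of a type and less RNA per cell cannot be told apart. Distances between arrays were similar within the PBS group, with a median absolute difference of 0.06 to 0.07, and VPA replicate 1 differed by 0.12 and 0.13 from VPA replicates 2 and 3, which differed by 0.07 from each other. All 8 deacetylase genes lay above the background gauge in both groups.

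Hdac1, a catalytic subunit of the Sin3, NuRD and CoREST complexes, had signals of 9.86, 9.98 and 9.97 on the VPA arrays, against 9.63, 9.53 and 9.59 on the PBS arrays. Each VPA array lay above each PBS array, and the gap between the groups exceeded the spread within either. The change was 0.36 (SE 0.06, 95% interval 0.22 to 0.49, limma adjusted p = 0.00232). By size it ranked 2944th among the 19938 genes, at the 85.2nd percentile of absolute change. Its second probe set gave 9.85, 9.92 and 9.96 with VPA and 9.61, 9.53 and 9.57 with PBS. In the fit of all 23410 named probe sets, where 13.6% were called higher and 14.7% lower, the 2 Hdac1 probe sets changed by 0.36 and 0.34 (limma adjusted p = 0.003 and 0.0029). On each array the signals of the 2 probe sets differed by at most 0.063. The platform annotation lists the same transcripts for both, and RefSeq also lists a pseudogene, Hdac1-ps, so RNA of the gene and of the pseudogene cannot be told apart here and the 2 probe sets are not independent measurements. Across the arrays, the cell cycle markers were higher with VPA too, and their part in the change of Hdac1 was not tested.

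Hdac2, which pairs with HDAC1 in the same complexes and is its closest relative, gave 10.85, 11.09 and 11.10 with VPA, against 11.21, 11.17 and 11.18 with PBS. All VPA arrays were lower, but VPA replicates 2 and 3 lay only 0.10 and 0.09 below the PBS mean, and VPA replicate 1 stood furthest down, 0.34 below it. The change of -0.175 (SE 0.075, 95% interval -0.34 to -0.01) did not pass (limma adjusted p = 0.116), and it was -0.09 without VPA replicate 1. The difference between the changes of Hdac1 and Hdac2 was 0.53. Relative to the mean of the PBS arrays, the Hdac1 to Hdac2 log2 ratio was 0.62, 0.50 and 0.48 on the VPA arrays, and 0.02, -0.04 and 0.02 on the PBS arrays. The ratio was thus higher in 3 of 3 VPA arrays than on any PBS array. The same held for the ratio of Hdac1 to each of the 7 other members, with differences between 0.27 (against Hdac8) and 0.60 (against Hdac5). All 7 ratios use the same Hdac1 values, and Hdac1 was the called member, so they are not separate support for its rise. Single genes did not overlap between the groups in 44.0% of all cases. The two-sided exact permutation p was 0.1 for each of these 7 comparisons, raw and Benjamini-Hochberg adjusted, which is the smallest that 3 arrays against 3 allow.

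Hdac3, the catalytic subunit of the NCoR complex, had 10.88, 10.95 and 10.92 with VPA and 10.97, 11.01 and 11.03 with PBS. The groups did not overlap but nearly touched, and the change was -0.09 (SE 0.05, 95% interval -0.21 to 0.03, limma adjusted p = 0.254). Hdac8 gave 8.39, 8.38 and 8.36 with VPA, against 8.28, 8.26 and 8.31 with PBS. Its arrays agreed closely within each group, with SDs of 0.01 and 0.02. Its change was 0.09, with a 95% interval of -0.03 to 0.21. Hdac8 was not called with the spread moderated across genes (limma adjusted p = 0.228), but it passed when its own spread alone was used (adjusted p = 0.0266); over 15 alternative settings its adjusted p ranged from 0.0266 to 0.454.

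**Figure D2:**
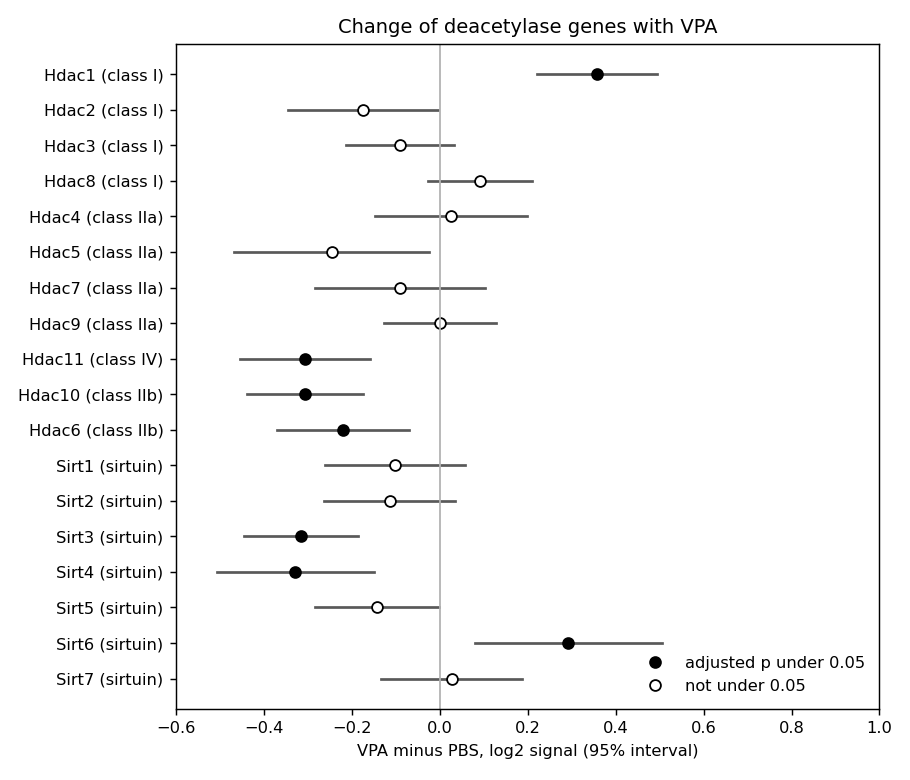
Change of each deacetylase gene, VPA minus PBS on the log2 scale (points), with its 95% interval from limma (lines); filled points have an adjusted p under 0.05. Hdac1, at 0.36, is the filled point among the 8 class I and IIa genes, while Hdac6, Hdac10 and Hdac11 lie between -0.31 and -0.22.

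Among the class IIa genes, Hdac5, which is expressed in neurons and in heart and skeletal muscle, had 9.40, 9.13 and 9.03 with VPA, against 9.32, 9.48 and 9.50 with PBS. VPA replicates 2 and 3 lay below all PBS arrays, whereas VPA replicate 1 lay above PBS replicate 1, so the groups overlapped. The change was -0.25 (SE 0.10, 95% interval -0.47 to -0.02), not called at an adjusted p of 0.0936 in limma. Hdac7, best known from endothelial cells and thymocytes, showed the same division. Its signals were 8.76, 8.48 and 8.44 with VPA and 8.68, 8.66 and 8.61 with PBS, a change of -0.09 (SE 0.085, limma adjusted p = 0.473). VPA replicate 1 was above every PBS array and the other VPA arrays were below every one. Endothelial markers rose with VPA in 10 of 13 cases, and their part in the level of Hdac7 was not tested.

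Hdac4, a repressor of MEF2 in muscle, cartilage and neurons, had 9.07, 8.84 and 8.85 with VPA and 8.97, 8.86 and 8.85 with PBS. The groups overlapped, and the highest array was again VPA replicate 1. The change was 0.03 (SE 0.08, limma adjusted p = 0.839), and the second probe set of Hdac4 changed by 0.01 (SE 0.07, limma adjusted p = 0.937). Hdac9, whose transcripts also encode a short form without the catalytic domain, gave 8.89, 8.89 and 8.91 with VPA, against 8.83, 8.92 and 8.94 with PBS. Its groups overlapped fully. The change of 0.0008 (SE 0.06, 95% interval -0.13 to 0.13, limma adjusted p = 0.994) was among the smallest of all genes, larger than that of 0.406% of them. The Hdac9 probe set covers several transcripts together, so the share of the short form could not be read from it.

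Of the arrays left out in turn, only the omission of VPA replicate 1 brought Hdac5 and Hdac7 past the threshold. With all 6 arrays kept but weighted by their spread, both were called lower (limma adjusted p = 0.00368 and 0.0402). The weights came from these same arrays, so this is not separate support. With them 4342 of all genes were called higher, against 2702 without weights. The number of all genes called lower, 3123 without weights, was also larger with them, so lower calls became more frequent among all genes too. In the unweighted fit of all 6 arrays, Hdac5 passed at an adjusted p under 0.1. Set against the average of VPA replicates 2 and 3, Hdac5, Hdac7 and Hdac4 were higher in VPA replicate 1 by 0.32, 0.30 and 0.23, while Hdac9 differed by -0.01. In class I the same difference was -0.24 for Hdac2, -0.12 for Hdac1, -0.05 for Hdac3 and 0.02 for Hdac8. Over all genes the median of its absolute value was 0.12, and Hdac5, Hdac7, Hdac2 and Hdac4 lay at the 90.9th, 88.2nd, 80.5th and 78.2nd percentiles. Without VPA replicate 1, Hdac5 changed by -0.35 (limma adjusted p = 0.00411) and Hdac7 by -0.19 (limma adjusted p = 0.0174), both called lower, Hdac4 by -0.05 (limma adjusted p = 0.503), and Hdac1 by 0.40 (limma adjusted p = 0.000652). That gave 1 member called higher and 2 lower, beside 19.8% and 21.2% of all genes without the same array. Over all 15 alternatives the adjusted p came from limma or from the fit without moderation of variances. It ranged from 0.00368 to 0.258 for Hdac5, from 0.0174 to 0.835 for Hdac7, from 0.493 to 0.978 for Hdac4 and from 0.000157 to 0.02 for Hdac1. The difference of VPA replicate 1 from VPA replicates 2 and 3 had a median of 0.09 over the neuronal markers, 0.12 over the endothelial, 0.02 over the cell cycle and -0.05 over the muscle markers. The part of these in the class IIa values was not tested.

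**Figure D3:**
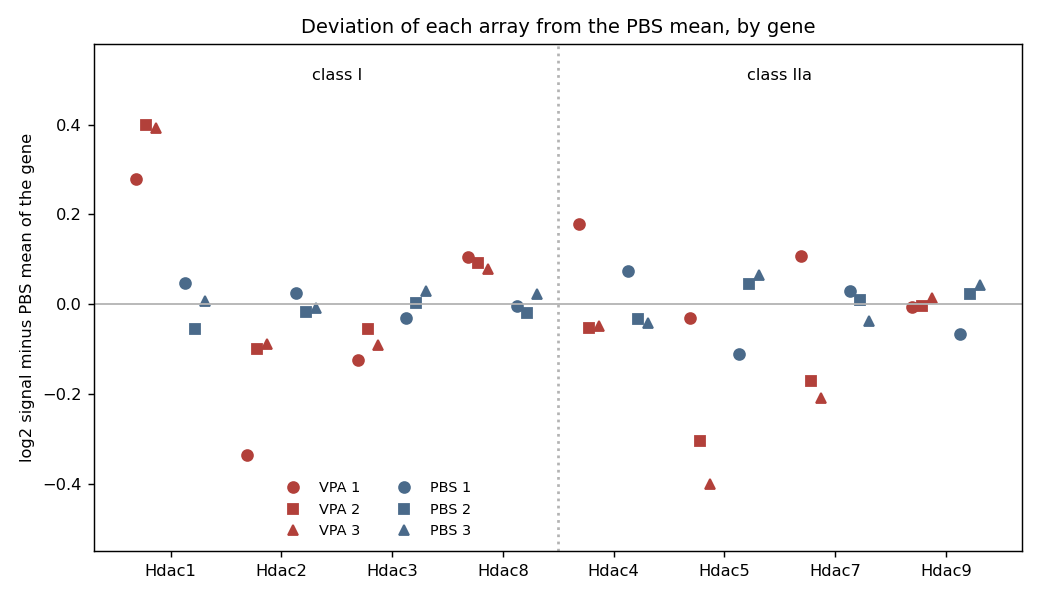
Log2 signal of each array minus the mean of the PBS arrays, for each gene, with VPA arrays in red left of PBS arrays in blue and symbols giving the replicate number. VPA replicate 1 (red circle) lies above the mean of VPA replicates 2 and 3 by 0.23 in Hdac4, 0.32 in Hdac5 and 0.30 in Hdac7, and differs from it by -0.24 in Hdac2.

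Windows of 300 bases, 250 before to 50 after a gene start, were taken from RefSeq's promoter table (GRCm38.p6). They were examined for 6 of the members, Hdac2, Hdac4, Hdac5, Hdac7, Hdac8 and Hdac9. No window of Hdac1 or Hdac3 was examined, and for Hdac3 this does not show that the promoter table holds none. Shown are the windows of Hdac4 and Hdac5, the class IIa genes with a single window that differed most between VPA replicate 1 and the other VPA arrays, and of Hdac2, the class I gene that differed most in the other direction. Capitals mark the GC box GGGCGG and the CCAAT box CCAAT, each on either strand. The windows lie at chr1:92180292-92180591 (strand minus) for Hdac4, chr11:102230123-102230422 (strand minus) for Hdac5 and chr10:36974294-36974593 (strand plus) for Hdac2. RefSeq lists the Hdac4 gene itself at chr1:91928779-92195702, so its window surrounds a start inside the gene and not the outer end of the gene. The Hdac2 gene is listed at chr10:36974297-37001889. Its window thus lies almost wholly inside the gene, and the start it surrounds is not the outer end either.
Hdac4: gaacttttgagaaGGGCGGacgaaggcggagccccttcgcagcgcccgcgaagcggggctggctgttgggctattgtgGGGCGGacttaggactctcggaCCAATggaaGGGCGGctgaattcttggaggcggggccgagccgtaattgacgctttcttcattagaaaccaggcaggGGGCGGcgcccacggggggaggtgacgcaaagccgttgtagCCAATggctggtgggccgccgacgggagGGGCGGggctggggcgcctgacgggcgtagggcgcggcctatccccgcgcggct
Hdac5: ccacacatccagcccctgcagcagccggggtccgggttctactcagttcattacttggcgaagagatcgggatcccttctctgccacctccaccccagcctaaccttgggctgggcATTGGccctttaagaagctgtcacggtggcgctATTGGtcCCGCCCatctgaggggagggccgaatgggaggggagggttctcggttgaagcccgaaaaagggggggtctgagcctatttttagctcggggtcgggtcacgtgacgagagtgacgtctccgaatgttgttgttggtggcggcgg
Hdac2: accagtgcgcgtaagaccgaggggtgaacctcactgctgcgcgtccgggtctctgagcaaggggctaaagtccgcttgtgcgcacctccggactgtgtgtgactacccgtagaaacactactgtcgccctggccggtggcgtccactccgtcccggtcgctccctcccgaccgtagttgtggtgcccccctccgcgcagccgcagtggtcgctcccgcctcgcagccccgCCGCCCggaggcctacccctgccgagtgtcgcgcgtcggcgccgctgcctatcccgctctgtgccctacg

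The Hdac4 window holds 5 GC boxes, 2 CCAAT boxes and 32 CpG dinucleotides. That of Hdac5 holds 1 GC box, 2 CCAAT boxes and 18 CpG dinucleotides, and that of Hdac2 holds 1 GC box, 0 CCAAT boxes and 36 CpG dinucleotides. Over all 32851 windows in the table, 35.7% hold a GC box and 37.4% a CCAAT box, and the median number of CpG dinucleotides is 7. Hdac8 has 1 window with 6 CpG dinucleotides and a CCAAT box on each strand, which overlap. Of 4 Hdac7 windows 1 holds a GC box, with 5 to 35 CpG dinucleotides, and the 2 Hdac9 windows hold neither box and 0 to 3 CpG dinucleotides. These matches describe the letters only; no binding was measured.

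The remaining zinc-dependent deacetylases, in classes IIb and IV, were each called lower, 3 of 3, beside 15.7% of all genes. Hdac11, the class IV enzyme, had 8.49 ± 0.05 with VPA and 8.79 ± 0.09 with PBS (log2, SD, n = 3 each), a change of -0.31 (SE 0.07, limma adjusted p = 0.00751). Hdac10, a polyamine deacetylase, changed by -0.31 (SE 0.06, limma adjusted p = 0.00417). Hdac6, the cytoplasmic tubulin deacetylase, changed by -0.22 (SE 0.07, limma adjusted p = 0.0339), and this call was lost without any 1 of VPA replicates 2 and 3 and the 3 PBS arrays, and after quantile normalization. Of 7 sirtuins, the NAD-dependent deacetylases, which do not use zinc, 1 was called higher and 2 lower. Those lower numbered 4 without VPA replicate 1, beside 21.2% of all genes without that array. The mitochondrial Sirt4 and Sirt3 changed by -0.33 and -0.32, and the nuclear Sirt6 rose by 0.29. The calls of Sirt4 and Sirt6 were lost without PBS replicate 1, and that of Sirt6 also without VPA replicate 2, PBS replicate 2 or PBS replicate 3.

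Subunits of the complexes in which class I enzymes work changed in both directions. Of 39 measured corepressor genes 8 were called higher and 6 lower (35.9%), with a median change of -0.03. Over all genes 13.6% were called higher and 15.7% lower, 29.2% in all, so change in both directions was not particular to these genes. Rest, the repressor that recruits CoREST to neuronal genes, had 9.34, 9.18 and 9.19 with VPA, against 8.58, 8.57 and 8.65 with PBS. It rose by 0.64 (SE 0.06, limma adjusted p = 0.00012), and the scaffold gene Rcor1 by 0.28 (SE 0.05, limma adjusted p = 0.00507). The other 6 measured genes of the CoREST list were not called, Kdm1a, its demethylase, among them, at -0.01. In the NuRD list of 10 genes, 3 were called higher and 2 lower. The lower count was 4 without VPA replicate 1, beside 21.2% of all genes without that array. Chd5, the NuRD remodeller found mainly in neurons, had 8.22, 8.22 and 8.12 with VPA and 8.81, 8.88 and 8.80 with PBS. Chd5 changed by -0.64 (SE 0.06, limma adjusted p = 7.08e-05) and its relative Chd3 by -0.31 (SE 0.06), while Gatad2a and Mta3 rose by 0.44 (SE 0.09) and 0.38 (SE 0.06) and the broadly expressed remodeller Chd4 differed by -0.05. The call of Gatad2a was lost when variances were not moderated. Neuronal markers were lower with VPA in 11 of 20 cases, and their part in the values of Chd5 and Rest was not tested.

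In the Sin3 list of 13 genes, 3 were called higher and 4 lower, beside 13.6% and 15.7% of all genes. The largest changes were those of Arid4a at -0.30, Rbbp7 at 0.26, Sap130 at 0.24 and Arid4b at -0.24. Their calls were lost without 1 array, PBS replicate 1 or 2 in every case, PBS replicate 3 for all but Arid4a, VPA replicate 2 for all but Arid4b and VPA replicate 3 for Rbbp7. Sin3 genes called higher numbered 0 without VPA replicate 2 or any 1 PBS array, and those called lower 0 without PBS replicate 1 or 2, 1 without PBS replicate 3 or after quantile normalization, and 2 without VPA replicate 2. Of the NCoR list 3 genes were measured, and 0 of the 3 were called in limma, nor did any reach an unadjusted p under 0.05; Tbl1x changed by -0.10 and Tbl1xr1 by -0.09. Of 5 scaffold genes of the MiDAC and MIER complexes 0 were called in limma. Only 1, Dnttip1 at -0.13, had an unadjusted p under 0.05, and Mier3 changed by 0.13. Of the 5, 1 was called higher without VPA replicate 1, beside 19.8% of all genes without that array.

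Partners of the class IIa enzymes were also measured. Of 3 MEF2 genes, whose products the class IIa enzymes bind, Mef2c was called higher, with 7.60, 7.63 and 7.90 on the VPA arrays and 7.24, 7.33 and 7.39 on the PBS arrays. The change of Mef2c was 0.39 (SE 0.09, limma adjusted p = 0.00932; not called without moderation of variances), and Mef2c is expressed in muscle, neurons and endothelium. Muscle markers rose in 11 of 16 cases, and their part in this rise was not tested. Among 15 kinase genes that phosphorylate class IIa enzymes 2 were called higher and 5 lower, beside 13.6% and 15.7% of all genes. Those lower numbered 2 without VPA replicate 2 or PBS replicate 3, and 3, with 1 higher, without PBS replicate 1 or 2. Prkd3, a protein kinase D gene, rose by 0.45 (SE 0.07, limma adjusted p = 0.00206), and the calcium/calmodulin kinase genes Camk2b, Camk1 and Camk4 changed by -0.36, -0.28 and -0.28. The calls of Camk2b and Camk4 were lost without VPA replicate 2, PBS replicate 2 or PBS replicate 3, that of Camk2b also without VPA replicate 3 and that of Camk4 without PBS replicate 1. Of 7 genes of the adaptor proteins that hold phosphorylated class IIa enzymes in the cytoplasm, 0 were called higher and 1 lower in limma, against 0 and 2 at an unadjusted p under 0.05. The called gene was Sfn, at -0.23, a call lost without any 1 array other than VPA replicate 2. Ywhah, Ywhae and Ywhag were not called.

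Acetyltransferases, which oppose the deacetylases, were called in 2 of 13 cases (15.4%) in limma, both lower, beside 15.7% of all genes called lower. At an unadjusted p under 0.05, 0 were higher and 4 lower, beside 18.8% and 20.9% of all genes. Without VPA replicate 1, 1 was called higher and 3 lower, beside 19.8% and 21.2% of all genes without that array. Kat6b gave 9.06, 9.14 and 9.03 with VPA, against 9.64, 9.46 and 9.55 with PBS, a change of -0.48 (SE 0.07, limma adjusted p = 0.000721). Kat2b changed by -0.46 (SE 0.06, limma adjusted p = 0.000805). Ep300 and Crebbp, the broadly acting pair, differed by -0.09 and -0.12 and were not called. Of 2 measured genes of BET proteins, which bind acetylated lysines, Brd3 was called lower at -0.34 (SE 0.06, limma adjusted p = 0.00256). Both were called lower without VPA replicate 1, beside 21.2% of all genes without that array. Over all partner lists 12 of 89 measured genes were called higher and 20 lower (36%), near the 29.2% of all genes, and their median change was -0.09. Without 1 array the counts ranged from 6 to 15 higher and from 11 to 28 lower, with 6 and 11 without PBS replicate 1, 6 and 12 without PBS replicate 2, 7 and 12 without PBS replicate 3, and 7 higher without VPA replicate 2.

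**Figure D4:**
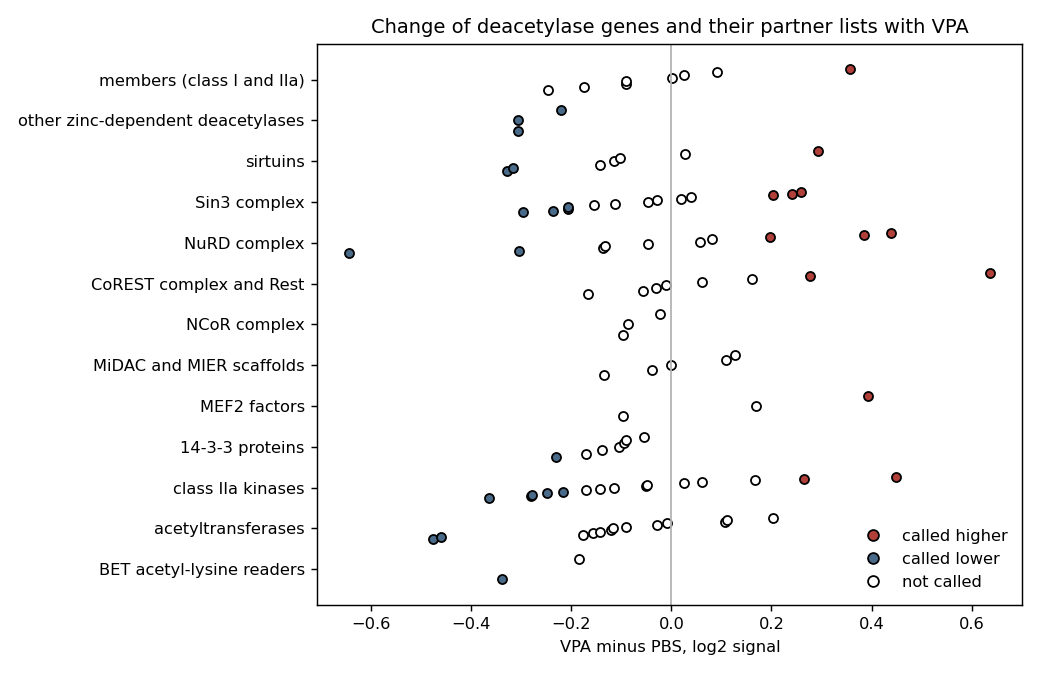
Change of each measured gene, VPA minus PBS on the log2 scale, for the 8 class I and IIa genes and for each list of partners (rows), with called genes filled. Rest at 0.64 and Chd5 at -0.64 lie furthest out, and the class I and IIa genes span -0.25 to 0.36.

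Genes with the array profile most like that of Hdac1, the only called member, were ranked by the root mean square difference of log2 values centred on each gene's own mean over the 6 arrays. Over 17578 genes the nearest were Rel, an NF-kappaB subunit gene, at 0.0125, Cyp4a14 at 0.02 and Zeb2, a transcriptional repressor gene of neural crest and interneurons, at 0.023. Rel changed by 0.36 and Zeb2 by 0.40, while Cyp4a14, at 5.16 with VPA and 4.83 with PBS, was not told apart from background. The ranking itself selects genes with a change near that of Hdac1, so these changes are not separate support for its rise. How close a match arises by chance among 17578 genes was not tested.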

How the data were processed

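The arrays' values were normalized log2 signals per probe set, deposited by the authors array by array; that the base is 2 was judged from the values. Per the submitters' processing notes Partek 6.5 and mm9 were used, in a role not stated; how signals were background-corrected, summarized and normalized is not given in the sources used here. Array medians lay between 6.99 and 7.03, so changes are relative to the other genes. For arrays, their number limits the precision. The design text calls the arrays biological replicates.

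GEO's platform annotation gave 1 symbol to 21789 of 35556 probe sets, several to 1621 and none to 12146; symbols were updated through the Entrez ID, which matched a RefSeq table (GRCm38.p6) for 21698. Probe sets with several symbols were not used for members. Each gene was taken from its brightest probe set by mean signal (19938 genes, 999 with more than 1 probe set). VPA was compared with PBS in R 4.3.3 with limma 3.58.1 (lmFit, eBayes, group as the only term), with Benjamini-Hochberg adjustment over all genes, or over the 23410 probe sets with a symbol; called means an adjusted p under 0.05. The fit was tested on simulated data. Named were all members and the 3 genes nearest to a called member. Of each partner list up to 4 called genes with the largest change were named (where none was called, the 2 of lowest p). Kdm1a, Chd4, Ep300, Crebbp, Ywhae, Ywhag, Ywhah and the marker gene Erg were named after their values were seen. Other marker genes were counted by list and not named. The members and lists were chosen with earlier results of these data known. Alternatives were quantile normalization, median centring, array weights, 2 filters on dim genes (30th and 50th percentile of mean signal), other models of the variance, replicate blocks, other thresholds, averaging the probe sets of each gene, adding unnamed probe sets, and leaving out each array.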

Additional observations from a re-analysis of the deposited data

How the results depend on the processing

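Of the 120 values of the 8 members under 15 alternatives, 109 kept direction and side of the threshold, 5 passed it in addition and 6 changed sign. Hdac1 was called in all 15, with a change of 0.33 to 0.41. The sign changes were those of Hdac9 (-0.0004 with arrays centred on their median, -0.0044 with array weights, -0.0043 over its probe set, -0.0058 without VPA replicate 3, and -0.0323 to 0.0224 over all arrays left out in turn, the lowest without PBS replicate 1) and Hdac4 (-0.0299 with array weights, -0.0508 to 0.0651 without 1 array, the lowest without VPA replicate 1); its 2 probe sets, in the fit over probe sets, gave -0.0314 and -0.0362 with array weights, and -0.0577 to 0.0524 for the dimmer without 1 array. Both genes lie near 0. Members called lower numbered 2 with array weights (Hdac5 and Hdac7, also 2 over probe sets), 1 at an adjusted p under 0.1 (Hdac5), and 0 to 2 without 1 array, by genes and by probe sets, 2 being without VPA replicate 1; members called higher numbered 2 without moderation of variances (Hdac8 in addition). Partner genes called higher numbered 5 without moderation and 6 at an adjusted p under 0.01, with 9 lower; without 1 array they were 6 to 15 higher and 11 to 28 lower. All genes called higher numbered 1520 with the filter at the 50th percentile, where fewer genes were tested, 1631 without moderation, 4342 with array weights and 1579 at 0.01, with 1791 lower; without 1 array they were 1778 to 3949, and 2058 to 4224 lower. Of 25 named and called partner genes 13 kept their call wherever they were tested, 12 of them in all 15 alternatives and Kat2b in 14 (it did not pass the filter at the 50th percentile), and 0 changed sign; Gatad2a and Mef2c lost theirs only without moderation of variances. The cause of these shifts was not tested. Same-numbered arrays did not deviate together (r = -0.02, -0.008 and 0.02 across genes), so the numbers were not taken as pairs; with a replicate block Hdac1 kept its call (limma adjusted p = 0.00812), Hdac6 and Arid4b lost theirs, and 2592 genes were higher and 2818 lower. Groups of 3 arrays cannot show small changes: the intervals of the members spanned up to 0.22 on either side of the estimate.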
